A study of Mus musculus with 12 samples.

Results

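The comparison asked which transcripts changed when siRNA against Nr5a2 was added to siRNA against Klf5 in mouse embryos. It set the 4 libraries of the double knockdown (dKD, siRNAs against both genes, n = 4) against the 3 libraries of the Klf5 knockdown (Klf5 KD, n = 3), which makes 7 of the 12 RNA-seq libraries of the series. The libraries were chosen by their labels alone. Each library held 10 pooled embryos at the 8-cell stage, grown from zygotes of B6129F1 females mated with B6CBAF1 males that had been injected with siRNA and, as an injection marker, 150 ng/µl mRNA of the fluorescent histone H2B-EGFP. Both groups therefore lacked part of their Klf5 message, and no uninjected or control embryo entered the comparison. Klf5 siRNA was used at 10 µM in the Klf5 KD, but the concentrations combined in the dKD are not given in the sources used here, nor is whether the Klf5 KD was topped up with non-targeting siRNA. The effect of the Nr5a2 sequence and that of more siRNA in total cannot be told apart. The other 5 libraries, control (non-targeting siRNA at 15 µM, n = 2) and Nr5a2 KD (5 µM, n = 3), are used below only to set the effect of Nr5a2 siRNA without Klf5 siRNA beside that with it.

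NR5A2, also called LRH-1, is an orphan nuclear receptor that binds DNA as a monomer at an extended half-site. In adult liver, pancreas and ovary it drives genes of bile acid and steroid metabolism, and in the early embryo it takes part in the activation of the embryonic genome. KLF5 is a zinc finger factor of the Krüppel-like family that binds GC-rich and CACCC-type sequences and is needed for both first lineages of the blastocyst, the trophectoderm and the inner cell mass. At the 8-cell stage the embryo has begun its own transcription, still holds oocyte RNA, and is about to compact and to set cells apart into those lineages. A siRNA lowers its target by cleavage of the message, so the level of the target transcript is itself a check of the knockdown.

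Nr5a2 (ENSMUSG00000026398, chr1:136842571-136960448 of GRCm38, minus strand) was lower in every dKD library than in every Klf5 KD library. It was 117, 256 and 203 CPM in the Klf5 KD libraries and 28.6, 31.2, 33.9 and 25.3 CPM in the dKD libraries, where CPM are counts on genes scaled to a common library size with TMM factors (trimmed mean of M values). The dKD mean of 29.7 ± 3.69 CPM (SD, n = 4) was 15.5% of the Klf5 KD mean of 192 ± 69.9 CPM (SD, n = 3), a log2 fold change of -2.68 ± 0.27 (SE, as after each log2 fold change), adjusted p = 0.000138. The Nr5a2 KD libraries, at 32.9, 38.9 and 24.1 CPM, overlapped those of the dKD. Klf5 (ENSMUSG00000005148, chr14:99298691-99315036, plus strand), the target that both groups share, did not pass the test. It was 72.9, 117 and 144 CPM in Klf5 KD and 82.2, 60.0, 42.3 and 40.0 CPM in dKD, so that the groups overlapped, with a log2 fold change of -0.98 ± 0.30, adjusted p = 0.0507. Klf5 was 444 and 467 CPM in the 2 control libraries. It met both thresholds under 4 of the alternatives, without the filter on low counts (adjusted p = 0.00415), with the mitochondrial share as a covariate (adjusted p = 0.000758), without Klf5 KD replicate 1 (adjusted p = 0.0276) and without dKD replicate 1 (adjusted p = 0.0201). A lower Klf5 level in dKD is thus a value to be read beside each result that follows, and its part in them was not tested.

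**Figure D1:**
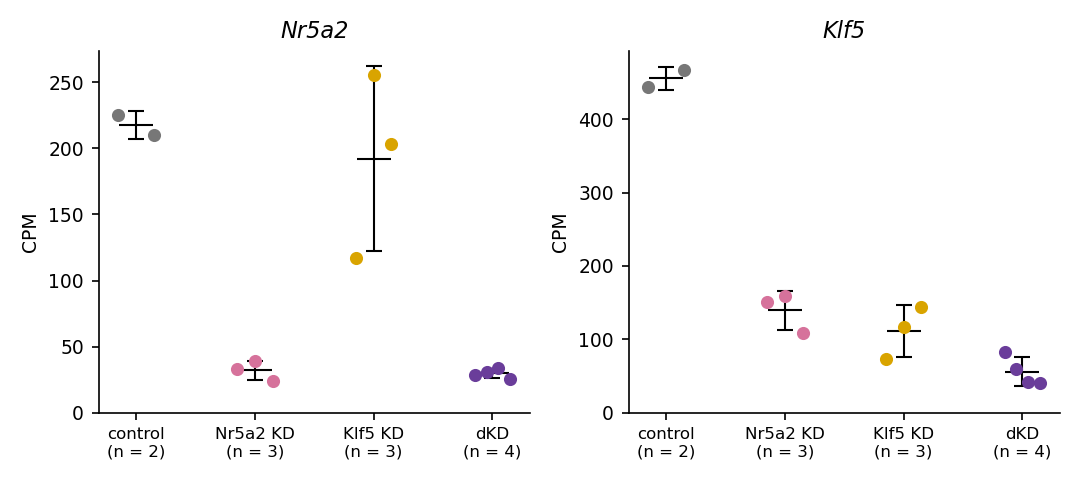
CPM of Nr5a2 (left) and Klf5 (right) in each library of the 4 groups. Points are libraries, bars the mean and 1 SD. Nr5a2 lies at 28.6, 31.2, 33.9 and 25.3 CPM in dKD and at 117, 256 and 203 CPM in Klf5 KD, and Klf5 overlaps between these groups.

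The depth of the 7 libraries was 6676683 to 12560926 counts on genes, with 19257 to 20940 genes detected. The share of counts on mitochondrially encoded genes varied within both groups, from 4.41 to 11.8% in Klf5 KD and from 6.17 to 12.8% in dKD, and did not separate them (exact permutation test, two-sided, p = 0.629, where 4 against 3 libraries can reach no lower than 0.0286). Klf5 KD replicate 1 and dKD replicates 3 and 4 had the lowest shares. Spike-in RNA, at 0.215 to 0.378% of counts, and H2B-EGFP, at 2.97 to 10.9 CPM, overlapped as well. The summed Y-linked genes were 23.7 to 106 CPM in Klf5 KD and 91.9 to 129 CPM in dKD, and the part of embryo sex in the results was not tested. Of 15 markers of cumulus and granulosa cells, the somatic cells that surround the oocyte, 6 had no count in any of the 7 libraries and 10 stayed under 1 CPM, and their sum was 16.8 to 21.9 CPM in Klf5 KD and 14.1 to 23.5 CPM in dKD. Amhr2 was 8.27 to 20.3 CPM, higher in Klf5 KD replicate 1 than elsewhere. Of 8 markers of the embryo itself, 7 were detected in all 7 libraries, and Cdx2, the trophectoderm factor, had counts in Klf5 KD replicate 3 alone (0.147 CPM).

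A total of 12904 genes were tested with edgeR's quasi-likelihood test. A gene was called at a Benjamini-Hochberg adjusted p under 0.05 over all genes tested and a change of at least 2-fold. Of these genes 698 were called lower in dKD (5.41%) and 694 higher (5.38%), or 10.8% in all. Over all genes tested the log2 fold change had a median of 0.02, and the medians were -1.67 for the lower and 1.92 for the higher genes. A change of 8-fold or more was found for 63 of the lower and 153 of the higher genes. The 2 groups did not overlap for 674 of the lower and 663 of the higher genes. Of all genes tested, 24.9% did not overlap, 12.6% with dKD below and 12.3% with dKD above. The call used the same libraries, so the separation of called genes is no further evidence. Library scaling moved the balance of the calls. With total counts in place of TMM factors the median of all genes rose from 0.02 to 0.24, and 486 genes were called lower and 1064 higher. With spike-in counts the median was 0.19 and the numbers were 350 and 589. All changes below are relative to the median gene under TMM scaling. As each library is a pool of whole embryos, fewer cells with a transcript and less of it in each cell cannot be told apart.

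**Figure D2:**
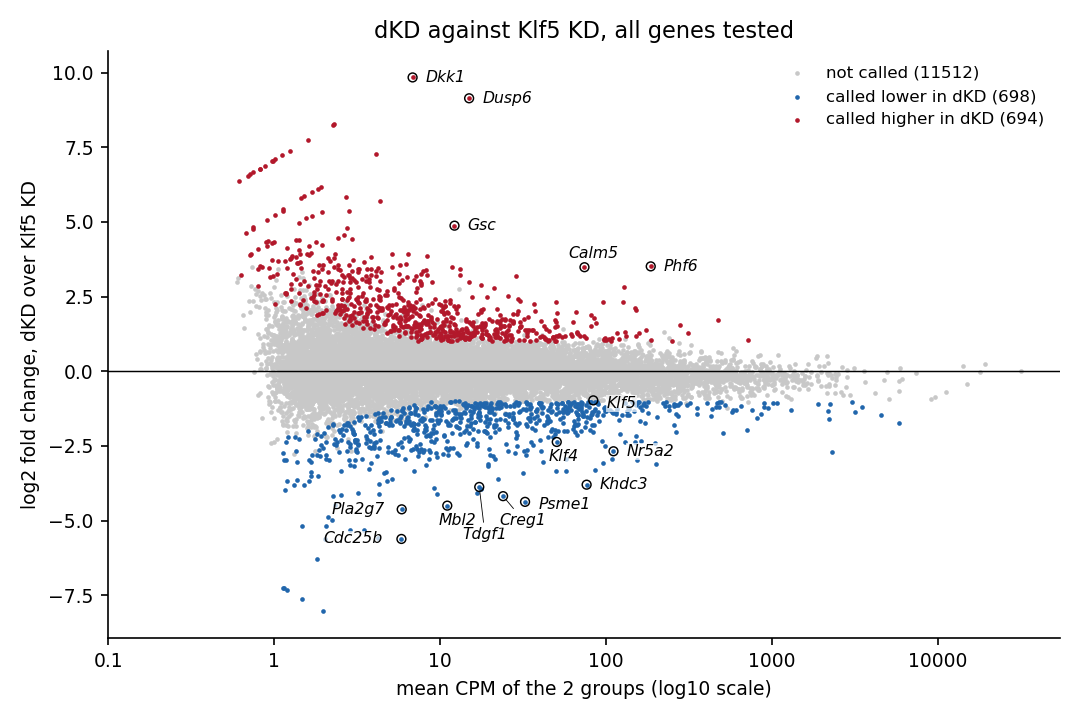
Log2 fold change of dKD over Klf5 KD against mean CPM (log10 scale) for the 12904 genes tested. Blue points are the 698 genes called lower, red points the 694 called higher, and the circled genes are named in the text, with Dkk1 and Dusp6 at the top.

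The largest decreases fell on genes of unlike roles. They were taken among called genes whose groups did not overlap and whose mean was at least 10 CPM in the higher group, and the 10 largest were Cdc25b, Pla2g7, Mbl2, Psme1, Creg1, Ube2u, 4933430I17Rik, Pdlim3, Tdgf1 and Khdc3. Cdc25b, a phosphatase that activates cyclin-dependent kinase 1, was 12.9, 11.3 and 10.2 CPM in Klf5 KD and 0.379, 0, 0.118 and 0.354 CPM in dKD, a log2 fold change of -5.62 ± 0.55, adjusted p = 0.000122. It had no count in dKD replicate 2. Psme1, a subunit of the PA28 activator of the proteasome, was 107, 44.4 and 34.7 CPM in Klf5 KD and 6.64, 1.77, 1.89 and 1.65 CPM in dKD (log2 fold change -4.38 ± 0.52, adjusted p = 0.000377). Creg1, a glycoprotein of the secretory and lysosomal route, fell from 63.9, 29.1 and 43.3 CPM to 1.64, 3.69, 1.77 and 2.83 CPM (log2 fold change -4.18 ± 0.37, adjusted p = 6.47e-05). The groups did not overlap for these 3 genes, as the rule that picked them required. The log2 fold change of Psme1 was -3.71 without Klf5 KD replicate 1 and -5.12 without dKD replicate 1.

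Mbl2, a mannose-binding lectin, was 23.9, 24.4 and 15.0 CPM in Klf5 KD and 0, 3.12, 0.472 and 0.236 CPM in dKD, at a log2 fold change of -4.50 ± 0.73, adjusted p = 0.00205. Ube2u, an E2 ubiquitin-conjugating enzyme, was 26.0, 32.5 and 35.7 CPM and 4.55, 1.28, 0.591 and 0.945 CPM (log2 fold change -4.07 ± 0.52, adjusted p = 0.000492). Pdlim3, which carries PDZ and LIM domains and sits on actin filaments, was 26.9, 10.9 and 14.1 CPM and 1.52, 0, 1.18 and 1.77 CPM (log2 fold change -3.90 ± 0.59, adjusted p = 0.00154). The transcript 4933430I17Rik, for which no role is given here, was 39.4, 25.3 and 34.4 CPM and 3.79, 1.56, 1.18 and 1.89 CPM (log2 fold change -3.95 ± 0.38, adjusted p = 0.00012). Pla2g7, the plasma hydrolase of platelet-activating factor, had no count in 3 of the 4 dKD libraries and 1.83 CPM in replicate 1, against 19.0, 5.14 and 9.69 CPM in Klf5 KD (log2 fold change -4.62 ± 0.93, adjusted p = 0.00645). Without dKD replicate 1 the log2 fold change of Pla2g7 was -9.57 and that of Ube2u -5.05, and without dKD replicate 2 that of Mbl2 was -6.36. DESeq2 did not call Pla2g7 (adjusted p = 0.133), whereas the other 9 were called under every alternative run.

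Khdc3 encodes Filia, a maternal protein of the subcortical complex of oocyte and early embryo. It was 154, 152 and 122 CPM in Klf5 KD and 17.2, 8.44, 7.91 and 6.97 CPM in dKD, a mean of 7.11% and a log2 fold change of -3.80 ± 0.32, adjusted p = 5.28e-05. The gene lies at chr9:73101836-73104438 (GRCm38, plus strand, ENSMUSG00000092622) and shares 38.5% of its exonic bases with Gm20509 on the same strand, between which read pairs were split. Its promoter was 1 of 2 among the named called genes to hold the extended NR5A2 half-site. The site was searched as TCAAGGNCA on both strands in RefSeq promoter windows of GRCm38.p6, from 250 bases before to 50 after each gene start, and 1.62% of all 32851 windows held it. Counted by gene, 1.86% of all 27025 genes with a window held it, and 1.26% of the tested genes with a window. A promoter was on hand for 78 of the 93 named genes called. The other holder was Psap, which encodes the precursor of the saposins of the lysosome and is described with that list. The stretches shown are 100 bases upstream of the starts, read 5′ to 3′ on the strand of the gene, with the site in capitals, at bases -208 to -200 for Khdc3 (chr9:73102148-73102247, plus strand) and -149 to -141 for Psap (chr10:60277434-60277533, plus strand). Both sites lie in reverse complement. Starts are those of RefSeq, and the Khdc3 stretch lies inside the gene as the files bound it.
Khdc3: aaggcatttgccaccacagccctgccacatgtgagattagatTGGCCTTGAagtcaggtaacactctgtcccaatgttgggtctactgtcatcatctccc
Psap: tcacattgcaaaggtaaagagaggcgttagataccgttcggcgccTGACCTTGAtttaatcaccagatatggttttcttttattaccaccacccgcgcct
A match of letters is no evidence of binding. No window among the 39 named genes called higher that had one held the site. At the shares above, so few genes cannot show a difference from those called lower. The shorter site AAGGTCA, held by 4.72% of all windows, lay in windows of Mbl2 and Psap, called lower, and of Ccnd3 and Gpx2, called higher.

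The largest increases included developmental signaling genes that were at or near 0 in Klf5 KD. Dkk1, a secreted antagonist of Wnt receptors (ENSMUSG00000024868, chr19:30545863-30549665), had no count in the 3 Klf5 KD libraries and 10.6, 3.54, 20.8 and 19.6 CPM in dKD, where 451 counts were found in all. Against a floor of 3 counts over the Klf5 KD group it was at least 124-fold higher in dKD. Dusp6, the phosphatase that inactivates ERK and is itself induced by ERK signaling (ENSMUSG00000019960, chr10:99263231-99267489), had 1 count in Klf5 KD and 928 in dKD, at 15.2, 52.5, 17.1 and 34.6 CPM. The ratio of the pooled levels was 768, with an exact 95% interval of 137 to 30365 that covers counting error alone. The single count lay in Klf5 KD replicate 3, and the fitted log2 fold change of 9.14, which depends on the prior count, was 10.99 without that library and 8.535 without Klf5 KD replicate 1. Gsc, the homeobox factor Goosecoid, was 0.720, 0.945 and 0.734 CPM in Klf5 KD and 28.6, 27.9, 14.1 and 23.9 CPM in dKD (log2 fold change 4.87 ± 0.41, adjusted p = 5.28e-05). All 3 genes were higher in every dKD library than in any Klf5 KD library.

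The other 7 of the 10 largest increases were Pxt1, Rdh12, Zfp82, Gpx2, Phf6, Gm14323 and Calm5. Phf6, a chromatin protein with PHD fingers, rose from 32.7, 36.7 and 20.8 CPM to 152, 208, 456 and 551 CPM (log2 fold change 3.51 ± 0.44, adjusted p = 0.000492). Calm5, of the calmodulin family, rose from 9.80, 13.1 and 13.9 CPM to 103, 179.5, 126 and 134 CPM (log2 fold change 3.48 ± 0.28, adjusted p = 5.28e-05). dKD replicates 3 and 4 held the higher Phf6 values. Gpx2, a glutathione peroxidase, was 0.899, 0.472 and 1.32 CPM in Klf5 KD and 5.82, 19.7, 10.8 and 5.90 CPM in dKD. Rdh12, a retinol dehydrogenase, was 2.07, 0.118 and 0.881 CPM and 7.46, 16.02, 28.6 and 10.51 CPM, and Pxt1, a peroxisomal protein known from testis, 0.270, 0.295 and 2.06 CPM and 7.96, 14.8, 14.3 and 10.6 CPM. The log2 fold changes of these 3 genes were 3.56, 3.86 and 3.92. That of Rdh12 was 5.06 without Klf5 KD replicate 1, and that of Pxt1 5.46 without Klf5 KD replicate 3. The zinc finger gene Zfp82 was 0.884, 1.09 and 0.856 CPM and 10.1, 15.7, 9.57 and 10.9 CPM (log2 fold change 3.59 ± 0.40, adjusted p = 0.000272), with 34.2% of its exonic bases shared with Gm26920. Gm14323 was 4.05, 0.354 and 1.17 CPM and 4.74, 13.1, 23.3 and 46.2 CPM (log2 fold change 3.49 ± 0.77, adjusted p = 0.0106), and its call was lost without Klf5 KD replicate 2 (adjusted p = 0.058).

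**Figure D3:**
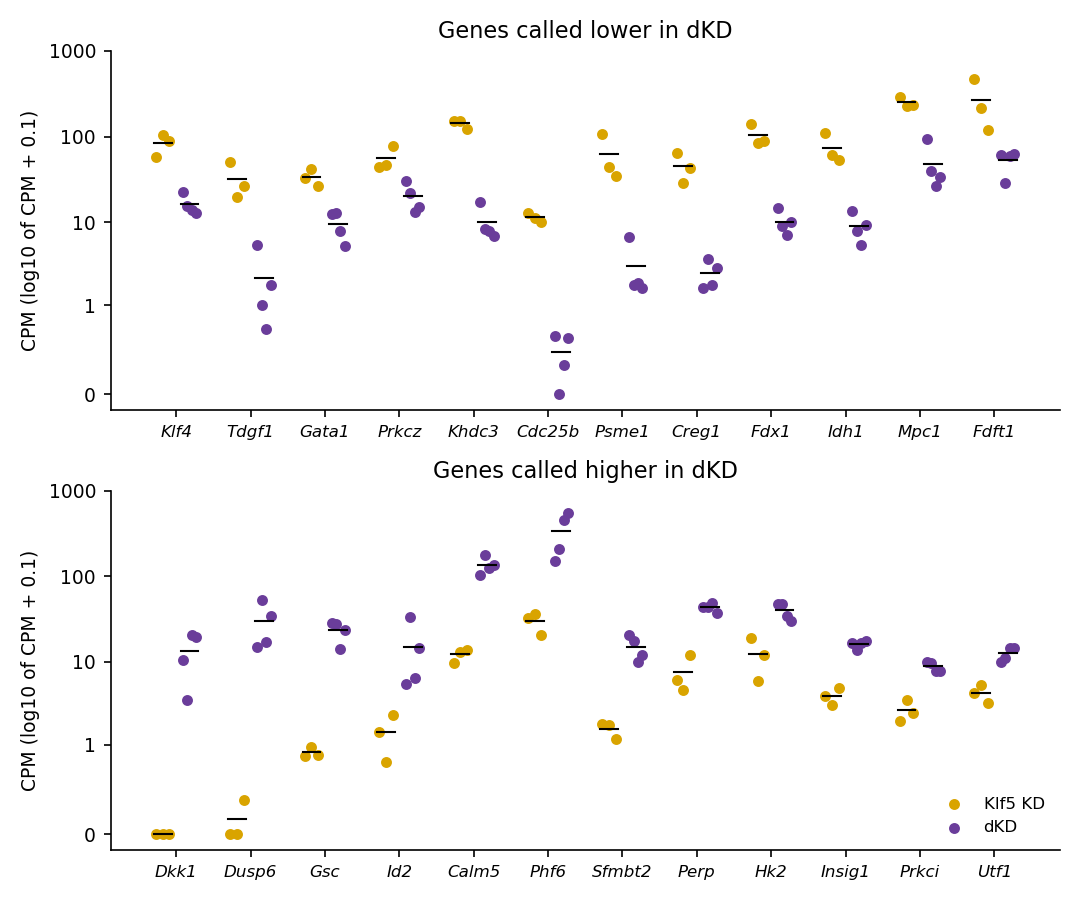
CPM per library (log10 of CPM + 0.1) of 12 genes called lower (top) and 12 called higher (bottom) in dKD. Yellow points are the 3 Klf5 KD and purple points the 4 dKD libraries, bars are group means. The 24 genes were picked among the 93 named genes called, of which 3 overlap between the groups. The groups do not overlap for any of the 24, which follows in part from the choice, nor for 24.9% of all genes tested. Dkk1 has no count in Klf5 KD.

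Of 17 tested genes that the study names for these experiments, 6 were called lower and 0 higher, at a median log2 fold change of -0.99, where 5.41% of all genes tested were called lower and 10.8% either way. They are Klf4, Tdgf1, Gata1, Prkcz, Rad51c and Xist. The study chose these genes partly on these libraries, so the count is not independent evidence of its direction. Klf4, a Krüppel-like factor of the pluripotency network (ENSMUSG00000003032, chr4:55527143-55532466), was 58.4, 106 and 90.0 CPM in Klf5 KD and 22.6, 15.3, 14.1 and 13.0 CPM in dKD, a log2 fold change of -2.37 ± 0.28, adjusted p = 0.000365. Tdgf1, which encodes Cripto, the co-receptor of Nodal, was 50.3, 19.7 and 26.7 CPM and 5.44, 0.993, 0.472 and 1.77 CPM (log2 fold change -3.88 ± 0.59, adjusted p = 0.00154), or -4.87 without dKD replicate 1. Gata1, a zinc finger factor best known from blood, was 33.0, 41.7 and 26.3 CPM and 12.5, 12.9, 7.91 and 5.196 CPM (log2 fold change -1.80 ± 0.33, adjusted p = 0.00386). None of these 3 calls was lost under an alternative.

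Gata6, the primitive endoderm factor, was 142, 216 and 214 CPM in Klf5 KD and 112, 116, 123 and 123 CPM in dKD. Its groups did not overlap, but it was not called, at a log2 fold change of -0.68 ± 0.22, adjusted p = 0.0601. Gata4 was 5.76, 8.98 and 12.2 CPM and 15.7, 9.93, 7.21 and 10.9 CPM (log2 fold change 0.30 ± 0.36, adjusted p = 0.646). Nanog, the inner cell mass factor, was 6.12, 6.85 and 11.3 CPM and 8.09, 5.11, 1.89 and 1.06 CPM (log2 fold change -0.99 ± 0.56, adjusted p = 0.289), and was called with the mitochondrial share as a covariate (adjusted p = 0.0178). Cdx2 was too low to be tested. Smad7 and Ryk did not pass either, at log2 fold changes of -1.11 and -1.14 and adjusted p of 0.219 and 0.0667, although Ryk was called under 6 alternatives, that with an unadjusted p among them, and Smad7 under 1, with the mitochondrial covariate (adjusted p = 0.0451). Prkcd, Pold1 and Aunip, at -0.32, -0.76 and -0.05, were not called (adjusted p = 0.574, 0.127 and 0.949). Rnaseh2c passed on its adjusted p of 0.0367 but not on its change, at a log2 value of -0.93, and was called with that covariate (adjusted p = 0.0109), without dKD replicate 1 (adjusted p = 0.0179) and with no fold minimum.

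Of 20 tested genes of the inner cell mass and pluripotency, 4 were lower (Klf4, Tdgf1, Dppa5a and Tdh) and 2 higher (Utf1 and Prdm14), and the median log2 fold change was -0.42. The 6 called made up 30% of the list, against 10.8% of all genes tested. Dppa5a, an RNA-binding protein of pluripotent cells, was 5093, 4346 and 5064 CPM in Klf5 KD and 2562, 2099, 2146 and 1598 CPM in dKD (log2 fold change -1.19 ± 0.20, adjusted p = 0.00251). With total counts its change was under 2-fold (-0.98). Tdh, threonine dehydrogenase, was 6.66, 3.72 and 1.69 CPM in Klf5 KD and 0.567 to 1.00 CPM in dKD (log2 fold change -2.37 ± 0.57, adjusted p = 0.0157). Tdh, and Pfkp, Slc16a1 and Lss below, are named beyond the rule for named genes, after their values were seen. In the other direction, Utf1, a chromatin protein of pluripotent cells, was 4.32, 5.32 and 3.23 CPM and 9.99, 11.2, 14.8 and 14.8 CPM (log2 fold change 1.57 ± 0.33, adjusted p = 0.00813). Prdm14, a factor of naive pluripotency, was 3.87, 3.42 and 4.11 CPM and 12.3, 11.2, 6.02 and 16.1 CPM (log2 fold change 1.59 ± 0.38, adjusted p = 0.015), and its call was lost without Klf5 KD replicate 2 (adjusted p = 0.0656) and without dKD replicate 4 (adjusted p = 0.0513). The list thus moved in both directions.

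Among 11 tested trophectoderm regulators and keratins, Dab2 was lower and Id2, Lgals3 and Krt8 were higher, or 36.4% of the list called against the same 10.8%. Id2, an inhibitor of basic helix-loop-helix factors that marks early trophectoderm, was 1.44, 0.591 and 2.35 CPM in Klf5 KD and 5.56, 33.3, 6.50 and 14.8 CPM in dKD (log2 fold change 3.39 ± 0.68, adjusted p = 0.00601), or 2.64 without dKD replicate 2. Dab2, an endocytic adaptor found in trophectoderm and primitive endoderm, was 54.8, 39.7 and 39.5 CPM and 25.8, 13.9, 19.6 and 14.5 CPM (log2 fold change -1.26 ± 0.27, adjusted p = 0.00955), and was not called with spike-in scaling (adjusted p = 0.0929). Lgals3, a galectin, was 4.32, 2.01 and 3.08 CPM and 8.60, 9.79, 8.86 and 7.68 CPM (log2 fold change 1.47 ± 0.37, adjusted p = 0.0193), and its call was lost without Klf5 KD replicate 2 (adjusted p = 0.0856) or 3 (adjusted p = 0.0546). The call of Krt8, a keratin of simple epithelia, at a log2 fold change of 2.10, was lost in 6 of the 7 fits that left out 1 library (adjusted p up to 0.125). Of 9 tested primitive endoderm and GATA genes, Gata1 and Dab2 were lower and Pdgfra, a receptor of that lineage, was higher. This was 33.3% of a list of 9, against 10.8% of all genes tested. Pdgfra (log2 fold change 1.89 ± 0.52, adjusted p = 0.0305) lost its call in 4 of those 7 fits (adjusted p up to 0.0954).

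No Hippo pathway gene was called among 21 tested, at a median log2 fold change of -0.12, against 10.8% of all genes tested. At an adjusted p without the fold minimum, Wwtr1, which encodes the coactivator TAZ, passed at 0.02, with 51.5, 74.1 and 59.2 CPM in Klf5 KD and 94.95, 120.3, 119.5 and 122 CPM in dKD (log2 fold change 0.90). Wwtr1 was called with total counts (adjusted p = 0.00934) and without Klf5 KD replicate 2 (adjusted p = 0.0384). Tead4, the DNA-binding partner of YAP and TAZ, was 66.1, 89.8 and 92.0 CPM and 51.0, 63.8, 60.5 and 48.8 CPM, and the kinase gene Lats2 15.5, 24.8 and 36.2 CPM and 11.4, 21.7, 13.4 and 8.44 CPM. Their log2 fold changes of -0.55 and -0.88 did not pass (adjusted p = 0.132 and 0.134), although Lats2 was called with the mitochondrial share as a covariate (log2 fold change -1.01, adjusted p = 0.0205). Lats2 shares 42.4% of its exonic bases with Gm49361. Mob1b, an adaptor of the LATS kinases, was 67.9, 193 and 236 CPM and 162, 222, 215 and 192 CPM (log2 fold change 0.27 ± 0.34, adjusted p = 0.665).

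The atypical protein kinase C genes of the apical domain were called in opposite directions. Prkcz was 44.8, 47.2 and 78.2 CPM in Klf5 KD and 30.4, 21.8, 13.2 and 15.0 CPM in dKD (log2 fold change -1.48 ± 0.32, adjusted p = 0.00893). Prkci was 1.98, 3.54 and 2.50 CPM and 9.99, 9.79, 7.79 and 7.91 CPM (log2 fold change 1.74 ± 0.37, adjusted p = 0.00802). In neither case did the groups overlap. Prkci was 5.30 and 10.6 CPM in control and 6.49, 7.44 and 10.4 CPM in Nr5a2 KD, so that the Klf5 KD libraries were the lowest of the 12 and the dKD libraries lay within the range of the control libraries. No other gene of the 17 tested for polarity and compaction was called, at a median of -0.05, and 11.8% called is near the share of all genes. Of 17 tested genes of tight junctions, pumps and water channels, Cgn (cingulin) was lower and Jup (plakoglobin) higher, at log2 fold changes of -2.04 and 1.89. They made up 11.8% of that list, near the 10.8% of all genes tested that were called. Cgn lost its call in 5 and Jup in 3 of the 7 fits that left out 1 library, at adjusted p up to 0.172 and 0.0745.

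In the Klf and Sp family of 15 tested genes 13.3% were called, against 10.8% of all genes tested. Klf4 was lower and Klf11 higher (log2 fold change 1.38 ± 0.39, adjusted p = 0.035), the latter lost in 6 of those 7 fits (adjusted p up to 0.11). Of 20 nuclear receptors and coregulators tested, Nr5a2 itself was the 1 gene called (5%), and 14 of the 20 had a positive log2 fold change, at a median of 0.30. Of 18 genes of steroid, bile acid and lipoprotein metabolism known as targets of NR5A factors in adult organs, 13 were too low to test. Of the 5 tested, Fdx1 and Shbg were lower and Abcb11 higher, which is 60% of a list of 5. Fdx1, ferredoxin 1, the electron donor of mitochondrial steroid hydroxylases, was 140.1, 83.3 and 88.4 CPM in Klf5 KD and 14.5, 9.08, 7.09 and 10.0 CPM in dKD (log2 fold change -3.34 ± 0.30, adjusted p = 6.47e-05). Shbg, the sex hormone-binding globulin, was 10.3, 8.03 and 11.8 CPM and 3.29, 3.54, 0.472 and 1.18 CPM (log2 fold change -2.24 ± 0.53, adjusted p = 0.0147). Abcb11, the bile salt export pump, was 1.26, 1.53 and 0.440 CPM and 3.03, 5.25, 5.67 and 5.90 CPM (log2 fold change 2.17 ± 0.52, adjusted p = 0.0154). Fdx1 fell to 9.80% of its Klf5 KD mean.

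The signaling lists of Nodal, BMP and TGF-beta, of FGF and ERK, and of Wnt had 15.8%, 15% and 12.5% of their tested members called, against 10.8% of all genes tested. Of 19 tested genes of the first, Tdgf1 was lower and Gsc and Id2 higher, at a median of 0.39. Of 20 genes of FGF and ERK signaling, Sos1 was lower and Dusp6 and Etv5 higher, at a median of 0.81. Etv5, an ETS factor induced by FGF signaling, was 0.720, 3.07 and 4.40 CPM in Klf5 KD and 7.46, 14.0, 9.21 and 9.09 CPM in dKD (log2 fold change 1.91 ± 0.51, adjusted p = 0.0261), and its call was lost without Klf5 KD replicate 2 (adjusted p = 0.073) or dKD replicate 2 (adjusted p = 0.07). Sos1, the exchange factor that activates RAS, was 70.2, 142 and 155 CPM and 64.7, 67.5, 45.8 and 49.8 CPM (log2 fold change -1.09 ± 0.28, adjusted p = 0.0227), and lost its call in 4 of the 7 fits that left out 1 library (adjusted p up to 0.0907). Of 16 Wnt genes, Dkk1 and Wls were higher, and Wls, a carrier of Wnt proteins, lost its call in 6 of those fits (adjusted p up to 0.105).

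Genes of glucose and pyruvate use moved in both directions. Of 24 tested genes of glycolysis and pyruvate entry, 5 were higher (Hk2, Pfkm, Ldha, Pfkp and Slc16a1) and 2 lower (Mpc1 and Mpc2), or 29.2% of the list called against 10.8% of all genes tested. Both lower genes encode subunits of the carrier that brings pyruvate into mitochondria. Mpc1 was 292, 229 and 233 CPM in Klf5 KD and 92.9, 39.9, 26.9 and 34.1 CPM in dKD (log2 fold change -2.36 ± 0.36, adjusted p = 0.00163), and Mpc2 was 1462, 1135 and 1172 CPM and 519.9, 428, 654 and 589 CPM (log2 fold change -1.19 ± 0.21, adjusted p = 0.00309). With total counts the change of Mpc2 was -0.97, under 2-fold, and with spike-in scaling its adjusted p was 0.114. Mpc1 shares 23.1% of its exonic bases with 4930506C21Rik on the opposite strand, and counting ignored strand.

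Among the higher genes, Hk2, which phosphorylates glucose, was 18.9, 6.02 and 12.0 CPM in Klf5 KD and 47.9, 47.9, 34.6 and 30.5 CPM in dKD (log2 fold change 1.71 ± 0.36, adjusted p = 0.00801). Ldha, which turns pyruvate into lactate, was 6.12, 7.21 and 2.20 CPM and 8.72, 17.4, 19.7 and 20.2 CPM (log2 fold change 1.67 ± 0.42, adjusted p = 0.0204), and its call was lost without Klf5 KD replicate 3 (adjusted p = 0.0568) or dKD replicate 4 (adjusted p = 0.0523). Pfkm and Pfkp are phosphofructokinases, at log2 fold changes of 3.46 and 1.51, and the call of Pfkm was lost without Klf5 KD replicate 2 (adjusted p = 0.0574). Slc16a1, the lactate and pyruvate carrier of the cell membrane, passed narrowly (log2 fold change 1.59 ± 0.49, adjusted p = 0.04995). Its dKD values were 39.1 and 69.2 CPM in replicates 1 and 2 and 14.3 and 15.1 CPM in replicates 3 and 4.

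The lists of the citric acid cycle, of nuclear genes of oxidative phosphorylation and of mitochondrially encoded genes had 5.26%, 1.39% and 0% of their tested members called, against 10.8% of all genes tested. Of 19 in the first list Idh1 was called, and it encodes the cytosolic isocitrate dehydrogenase. It was 109.6, 61.0 and 52.99 CPM in Klf5 KD and 13.5, 7.94, 5.43 and 9.21 CPM in dKD (log2 fold change -3.03 ± 0.34, adjusted p = 0.000288), and was called under every alternative run. Of 72 nuclear genes of oxidative phosphorylation, Ndufa8 of complex I was called, at 221, 145 and 140.3 CPM and 40.6, 10.6, 40.4 and 25.6 CPM (log2 fold change -2.51 ± 0.38, adjusted p = 0.00147), and the list had a median of -0.24. The 13 mitochondrially encoded genes had none called and a median of 0.02. Of 12 tested glucose and amino acid transporters, Slc1a5 and Slc3a2 were higher, or 16.7% called against 10.8% of all genes tested. Slc1a5, a glutamine carrier, was 3.06, 2.36 and 2.20 CPM and 13.4, 13.1, 5.91 and 9.56 CPM (log2 fold change 2.04 ± 0.40, adjusted p = 0.00513), and Slc3a2, the heavy chain of several amino acid carriers, 33.5, 13.1 and 13.4 CPM and 49.9, 39.5, 71.6 and 47.2 CPM (log2 fold change 1.38 ± 0.35, adjusted p = 0.0212). Slc3a2 lost its call without Klf5 KD replicate 2 (adjusted p = 0.13), Klf5 KD replicate 3 (adjusted p = 0.0929) or dKD replicate 3 (adjusted p = 0.0504).

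Of 28 tested genes of cholesterol synthesis and uptake, 4 were lower (Fdft1, Msmo1, Ebp and Lss) and 3 higher (Insig1, Pmvk and Cyp51), at a median of 0.07, or 25% called against 10.8% of all genes tested. Lss, lanosterol synthase, passed at a log2 fold change of -1.08 ± 0.33 and an adjusted p of 0.047. Fdft1, squalene synthase, was 474, 218 and 119 CPM in Klf5 KD and 60.5, 29.1, 59.4 and 63.0 CPM in dKD (log2 fold change -2.34 ± 0.40, adjusted p = 0.00255). Msmo1 and Ebp, later enzymes of the path, were 309.7, 105 and 128 CPM and 222, 76.7 and 41.4 CPM in Klf5 KD and 66.0, 39.7, 72.5 and 55.1 CPM and 31.4, 18.01, 28.2 and 34.6 CPM in dKD. In all 3 genes Klf5 KD replicate 1, the library with the lowest mitochondrial share, was the highest of the 7. Without it the calls of Msmo1 (log2 fold change -0.96, adjusted p = 0.0459) and Ebp (-1.04, adjusted p = 0.0649) were lost, while that of Fdft1 was not, at a log2 fold change of -1.63. Insig1, which retains the sterol sensor in the endoplasmic reticulum, was 3.96, 3.07 and 4.99 CPM and 16.8, 13.8, 16.6 and 17.6 CPM (log2 fold change 2.03 ± 0.31, adjusted p = 0.0016) and was called under every alternative run. Pmvk and Cyp51 lost their calls in 4 and 7 of the 7 fits that left out 1 library, at adjusted p up to 0.124 and 0.156.

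Of 24 tested genes of glutathione and peroxide detoxification, Gpx4 and Prdx3 were lower and Mgst3, Txnrd1 and Gss higher, or 20.8% called against 10.8% of all genes tested. Gpx4, the peroxidase of membrane lipids, was 414, 359 and 379 CPM in Klf5 KD and 168, 141, 134 and 124 CPM in dKD (log2 fold change -1.43 ± 0.20, adjusted p = 0.00108). Mgst3, a microsomal glutathione transferase, was 2.88, 1.89 and 7.05 CPM and 26.3, 15.7, 10.51 and 14.6 CPM (log2 fold change 2.13 ± 0.47, adjusted p = 0.01), or 2.77 without Klf5 KD replicate 3. Prdx3, Txnrd1 and Gss lost their calls in 4, 5 and 4 of the 7 fits that left out 1 library, at adjusted p up to 0.163, 0.0804 and 0.105. Of 28 lysosomal genes, 3 were lower, Gusb and Psap among them, and 0 higher, a share of 10.7% that is near that of all genes. Gusb, beta-glucuronidase, was 6.66, 6.85 and 4.55 CPM and 1.01, 0.425, 1.77 and 1.65 CPM (log2 fold change -2.27 ± 0.49, adjusted p = 0.00939). Psap, at a log2 fold change of -1.19, lost its call in 6 of those fits, at adjusted p up to 0.118. Psap, whose promoter stretch is shown above, was 23.0, 29.2 and 27.9 CPM and 19.7, 11.9, 6.38 and 8.27 CPM.

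The cell cycle list of 33 tested genes had Cdc25b and Cdk1 lower and Ccnd3 higher, or 9.09% called against 10.8% of all genes tested. Cdk1, the kinase that CDC25 phosphatases activate, was 649.9, 326 and 228 CPM in Klf5 KD and 114, 130.2, 152 and 170.2 CPM in dKD (log2 fold change -1.495 ± 0.31, adjusted p = 0.00742). Without Klf5 KD replicate 1 its change was -0.94, under 2-fold, and with spike-in scaling its adjusted p was 0.084. Ccnd3, cyclin D3, was 10.8, 18.5 and 19.4 CPM and 33.2, 63.5, 34.6 and 47.4 CPM (log2 fold change 1.48 ± 0.31, adjusted p = 0.00832). Of 47 genes of DNA replication, Rrm2, the small subunit of ribonucleotide reductase, was called, at 459.5, 339 and 229 CPM and 161, 100, 133 and 161 CPM (log2 fold change -1.29 ± 0.27, adjusted p = 0.00702), though not with spike-in scaling (adjusted p = 0.117). This was 2.13% of that list, at a median of -0.04.

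Homologous recombination and Fanconi genes gave 3 lower (Fance, Rad51c and Rbbp8) and 3 higher (Atr, Rad54l and Bard1) of 34 tested, or 17.6% called against 10.8% of all genes tested. Fance, of the Fanconi core complex, was 12.1, 14.1 and 15.1 CPM in Klf5 KD and 4.87, 4.11, 2.30 and 1.12 CPM in dKD (log2 fold change -2.14 ± 0.42, adjusted p = 0.00533). Rad51c, a paralogue of the strand exchange protein, was 9.62, 12.9 and 10.4 CPM and 3.79, 0.425, 1.89 and 2.83 CPM (log2 fold change -2.27 ± 0.49, adjusted p = 0.00962). Rbbp8, which encodes the resection factor CtIP, had a log2 fold change of -1.20 ± 0.27, adjusted p = 0.0111, lost without Klf5 KD replicate 2 (adjusted p = 0.0566). Atr, the kinase of the replication checkpoint, was 6.48, 8.03 and 12.0 CPM and 29.3, 28.6, 21.1 and 19.4 CPM (log2 fold change 1.49 ± 0.31, adjusted p = 0.00751). Rad54l was 9.58, 14.8 and 10.8 CPM and 20.1, 30.6, 27.2 and 30.8 CPM (log2 fold change 1.22 ± 0.28, adjusted p = 0.0126), not called with spike-in scaling (adjusted p = 0.0567), and Bard1 lost its call in 5 of the 7 fits that left out 1 library (adjusted p up to 0.139). Of 16 tested p53 targets, Perp, a membrane protein of cell junctions and apoptosis, was higher, at 6.12, 4.72 and 12.2 CPM and 44.0, 43.7, 48.5 and 37.7 CPM (log2 fold change 2.52 ± 0.33, adjusted p = 0.000671). Ei24 and Trp53inp1 were lower, at -1.12 and -1.41, so that 18.8% of the p53 list was called against 10.8% of all genes tested. Ei24 and Trp53inp1 each lost the call in 4 of those fits (adjusted p up to 0.0705 and 0.071).

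Of 13 tested genes of DNA methylation, Dnmt3a was lower and Dnmt3b and Mbd1 higher, or 23.1% called against 10.8% of all genes tested. The list of 16 imprinted genes had 18.8% called. Dnmt3a, a de novo methyltransferase, was 32.2, 44.4 and 39.2 CPM in Klf5 KD and 25.0, 17.6, 11.3 and 13.7 CPM in dKD (log2 fold change -1.18 ± 0.29, adjusted p = 0.0187), and its call was lost without Klf5 KD replicate 2 (adjusted p = 0.0736) or dKD replicate 4 (adjusted p = 0.0573). Dnmt3b, the other de novo enzyme, was 2.34, 4.25 and 4.40 CPM and 7.08, 10.8, 16.4 and 8.97 CPM (log2 fold change 1.58 ± 0.40, adjusted p = 0.0198), lost without Klf5 KD replicate 1 (adjusted p = 0.0715), Klf5 KD replicate 2 (adjusted p = 0.054) or dKD replicate 3 (adjusted p = 0.0608). Mbd1, a reader of methylated DNA, had a log2 fold change of 3.26 ± 0.84, adjusted p = 0.0216. It passed the filter on low counts in 4 of the 7 fits that left out 1 library, and its call was lost without Klf5 KD replicate 1 (adjusted p = 0.0856) or 2 (adjusted p = 0.0987). Of the imprinted genes, Sfmbt2, a Polycomb protein needed in the placenta, was 1.80, 1.77 and 1.17 CPM and 20.9, 17.4, 9.92 and 11.9 CPM (log2 fold change 3.23 ± 0.40, adjusted p = 0.000438) and was called under every alternative run. Igf2r and Phlda2 were lower, at log2 fold changes of -1.59 and -1.10. Igf2r, the receptor that clears IGF2, was 91.0, 101 and 116 CPM and 64.7, 37.4, 16.1 and 16.8 CPM, with its call lost without Klf5 KD replicate 2 (adjusted p = 0.0639) or dKD replicate 4 (adjusted p = 0.0528), and Phlda2 lost its call in 3 of the 7 fits (adjusted p up to 0.133).

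Xist, the RNA that coats the inactive X chromosome, was 262, 175 and 68.6 CPM in Klf5 KD and 72.8, 78.9, 24.6 and 69.5 CPM in dKD, and Tsix, its antisense partner, was 201, 112 and 48.1 CPM and 51.6, 56.6, 15.1 and 36.4 CPM. The groups overlapped for both. They passed at log2 fold changes of -1.45 ± 0.42, adjusted p = 0.0404 for Xist and -1.58 ± 0.46, adjusted p = 0.0374 for Tsix, but lost the call in 6 and 4 of the 7 fits that left out 1 library (adjusted p up to 0.202 and 0.209). Tsix shares 32.6% of its exonic bases with other genes, Xist among them, and without strand in the counting the RNAs cannot be told apart there. The Y-linked genes, which mark male embryos in the pools, had 0 of 6 tested called, all 6 with a positive log2 fold change and a median of 0.88. Of 5 tested X inactivation genes, Xist and Tsix make up 40%, against 10.8% of all genes tested that were called. Eif2s3y was 13.7, 15.2 and 45.5 CPM in Klf5 KD and 45.8, 50.5, 80.8 and 51.0 CPM in dKD, and was called under 9 alternatives, that with an unadjusted p among them. Ddx3y, also Y-linked, was called under 1 alternative, without Klf5 KD replicate 3 (log2 fold change 1.73, adjusted p = 0.00878). The part of the sex of the pooled embryos in the Xist values was not tested.

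Transcripts of earlier stages were examined gene by gene and as sums. Of 11 tested genes of the 2-cell stage, Tdpoz2 was lower, at 29.2, 13.7 and 14.4 CPM in Klf5 KD and 4.49, 2.84, 4.25 and 6.38 CPM in dKD (log2 fold change -2.07 ± 0.37, adjusted p = 0.00321), and Obox3 higher, lost in 4 of the 7 fits that left out 1 library (adjusted p up to 0.15). Tdpoz2 belongs to a family of near-identical copies, so its count is uncertain. The summed level of the 2-cell list was 62.2 to 115 CPM in Klf5 KD and 72.8 to 131 CPM in dKD, so that the groups overlapped. Of 29 oocyte and maternal transcripts tested, Khdc3 alone was called, at a list median of 0.07. The shares called were 18.2% of the 2-cell and 3.45% of the maternal list, against 10.8% of all genes tested. The sum of that list was 17290 to 20060 CPM in Klf5 KD and 20070 to 23160 CPM in dKD (exact permutation test, two-sided, p = 0.0286, the smallest that 35 arrangements can give, and adjusted p = 0.2 over the 7 sums and shares tested). The maternal sum thus did not overlap between the groups, with the lowest dKD and the highest Klf5 KD library close together.

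Of the mitochondrially encoded genes, mt-Cytb and mt-Nd1 had log2 fold changes of 0.02 and 0.17. None of 78 cytosolic ribosomal protein genes (median -0.21, 70 of them negative) or 26 ribosome biogenesis genes (median 0.02) was called, nor was any of 6 interferon response genes (median -0.19). Of the last list, Oasl2 was called higher without the filter on low counts (log2 fold change 1.09, adjusted p = 0.0254), without dKD replicate 1 (1.42, adjusted p = 0.0123) and with an unadjusted p. Rpl41 was 16550, 15700 and 19210 CPM in Klf5 KD and 15780, 13540, 11010 and 10810 CPM in dKD, and Npm1, nucleophosmin, was 7451, 6326 and 5906 CPM and 5086, 4543, 5578 and 5408 CPM, at adjusted p of 0.19 and 0.255. With total counts the ribosomal protein median was 0.01 where that of all genes was 0.24. Of 35 proteasome subunits and activators, Psme1 and Psmc4 were lower, or 5.71% called against 10.8% of all genes tested. Psmc4 lost its call in 5 of the 7 fits that left out 1 library (adjusted p up to 0.268). Of 27 genes of the chaperonin, tubulin and actin list, Tubb6, Tubb5 and Tuba1a were higher, or 11.1% of the list, near the 10.8% of all genes tested. Tubb6 was 3.24, 2.95 and 4.70 CPM and 11.2, 14.0, 8.03 and 8.86 CPM (log2 fold change 1.55 ± 0.36, adjusted p = 0.0128) and lost its call without Klf5 KD replicate 2 (adjusted p = 0.0566), while Tubb5 and Tuba1a lost theirs in 5 and 6 fits (adjusted p up to 0.11 and 0.142). Of 20 aminoacyl-tRNA synthetases Cars was higher, or 5% of the list, and lost its call in 5 fits (adjusted p up to 0.119). Of 3 tested cumulus markers Kitl was higher, which is 33.3% of a list of 3. It was 0, 0.118 and 0.881 CPM in Klf5 KD and 4.17, 3.40, 1.53 and 3.19 CPM in dKD (log2 fold change 3.34 ± 0.90, adjusted p = 0.0267). Its call was lost without Klf5 KD replicate 1 (adjusted p = 0.0731) or 2 (adjusted p = 0.112), and the part of cumulus cells in it was not tested. Of the other markers in that list of 15, Ptx3, Amh and Fshr were among the 6 at 0 in all 7 libraries and Has2 was 0 to 0.294 CPM, while Foxl2 was 0.236 to 0.734 CPM in Klf5 KD and 0.709 to 1.26 CPM in dKD, and Vim 0 to 0.734 CPM and 0.632 to 2.72 CPM.

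**Figure D4:**
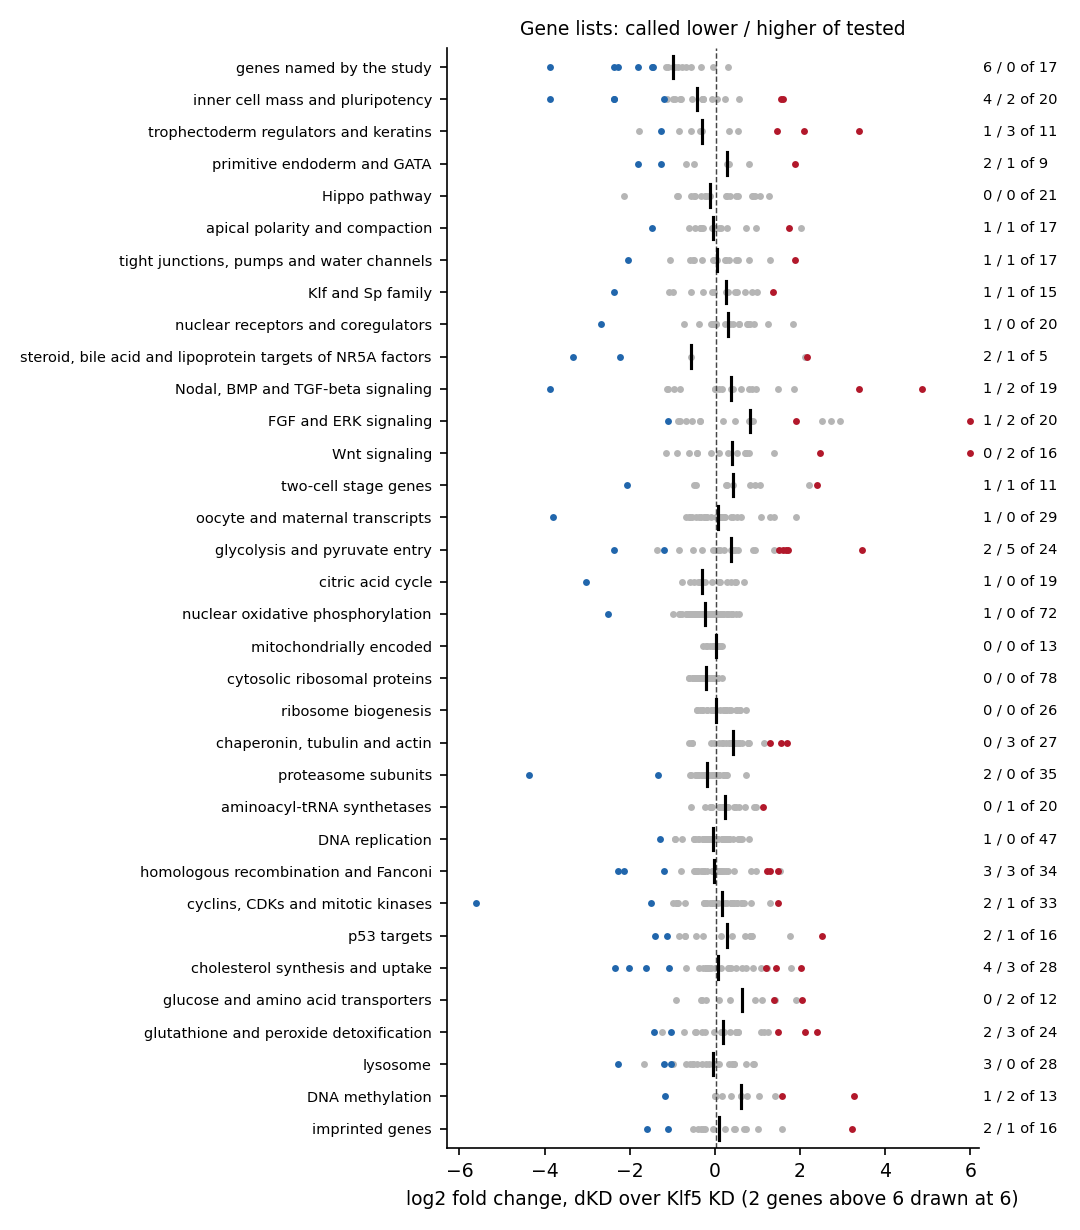
Log2 fold change of dKD over Klf5 KD for the tested members of 34 gene lists. Points are genes, blue where called lower and red where called higher, the thick bar is the list median and the dashed line the median of all genes tested (0.02). At the right are the numbers called lower and higher of those tested. Dkk1 and Dusp6 are drawn at the edge of the axis.

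To see whether Nr5a2 siRNA did the same without Klf5 siRNA, the 3 Nr5a2 KD libraries were set against the 2 control libraries, none of which enters the comparison above. There, 586 of 13262 genes were called lower (4.42%) and 457 higher (3.45%), or 7.86% in all. These counts rest on few controls and on the scaling, with 206 lower and 114 higher without control replicate 1, 184 and 120 without control replicate 2, and 90 and 761 with spike-in scaling, under which 67 genes were called lower in both comparisons. The changes in both comparisons were available for 12393 genes, with Pearson's r = 0.708 and Spearman's rho = 0.630 between them, a description across genes, which are not independent replicates. Of 678 genes called lower in dKD against Klf5 KD, 367 (54.1%) were also called lower in Nr5a2 KD against control, which is 65.8% of the 558 called there. Of 666 genes called higher, 246 (36.9%) were called higher in both, or 57.3% of 429. No gene was called in opposite directions. Of the genes called in dKD, 98.4% of the lower and 95.3% of the higher ones had the same sign in Nr5a2 KD, where 46.6% of the genes not called in dKD were negative and 53.4% positive.

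The 311 genes called lower with Klf5 siRNA but not without it had a median log2 fold change of -1.44 in dKD against Klf5 KD and of -0.88 in Nr5a2 KD against control. For the 420 called higher in dKD only, the medians were 1.74 and 0.86. That a gene was called in 1 comparison and not in the other does not show that its change differed. The difference itself, tested as an interaction over all 12 libraries and 14830 genes, gave 0 calls with edgeR, where 4.82% of genes had an unadjusted p under 0.05 and the smallest adjusted p was 0.480. DESeq2 called 3 genes, and edgeR called 15 without the filter on low counts.

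Genes described above are given here with both log2 fold changes, that of Nr5a2 KD over control first and that of dKD over Klf5 KD second. Nr5a2 had values of -2.74 and -2.68, Klf4 of -2.13 and -2.37, Tdgf1 of -4.34 and -3.88, and Fdx1 of -2.97 and -3.34. Idh1 had -2.73 and -3.03, and Mpc1 -1.82 and -2.36. Gsc had 3.30 and 4.87, Phf6 3.79 and 3.51, and Sfmbt2 2.69 and 3.23. Dusp6 was 3.94 and 2.55 CPM in control and 33.6, 42.8 and 26.6 CPM in Nr5a2 KD, against 0 to 0.147 CPM in Klf5 KD and 15.2 to 52.5 CPM in dKD. Its interaction had an unadjusted p of 6.45e-05 and an adjusted p of 0.48 with edgeR, whereas DESeq2 called it (adjusted p = 0.0381). Lats2 was called in Nr5a2 KD against control (log2 fold change -2.24) and, without the mitochondrial covariate, not in dKD against Klf5 KD (-0.88), at an adjusted interaction p of 0.95. Of the 93 named genes called in dKD, 55 were called the same way in Nr5a2 KD against control and 38 were not called there. Among the latter, in the same order of comparisons, Prkci had 0.05 and 1.74, Prdm14 -0.20 and 1.59, Klf11 -0.22 and 1.38, Cars 0.01 and 1.12, Slc1a5 0.33 and 2.04, and Ebp -0.15 and -2.005. These 6 were picked after their values were seen, and their interaction was not called by edgeR (adjusted p = 0.896 for Prdm14, and 0.95 for the other 5). Klf5 itself fell by 1.68 on the log2 scale in Nr5a2 KD against control, from 444 and 467 CPM to 151, 159 and 109 CPM.

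**Figure D5:**
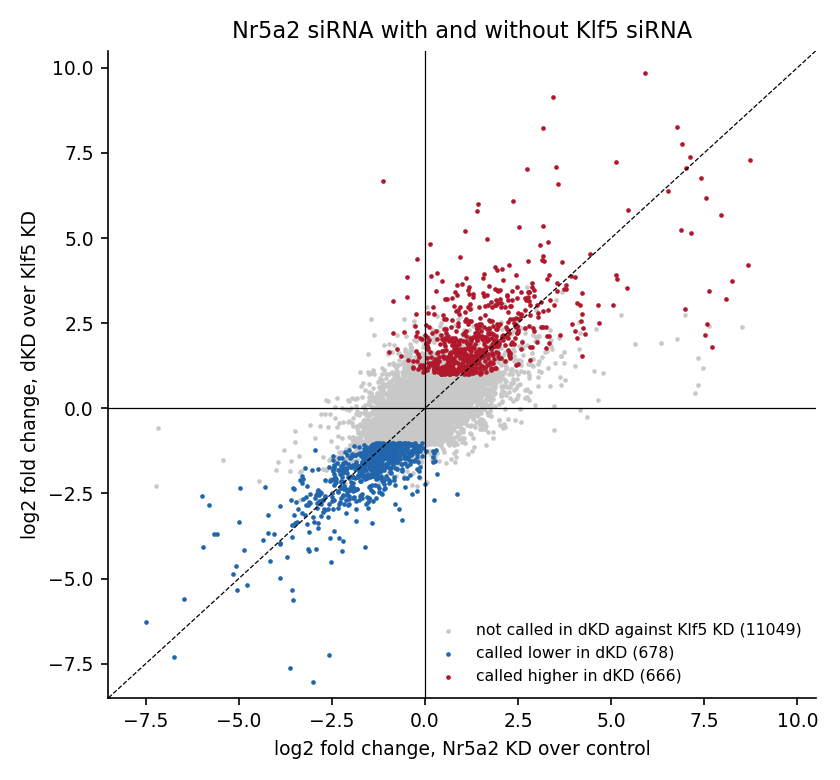
Log2 fold change of dKD over Klf5 KD against that of Nr5a2 KD over control for the 12393 genes tested in both, with equality as the dashed line. Blue and red points are the 678 and 666 genes called lower and higher in dKD against Klf5 KD, which lie almost all in the lower left and the upper right.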

How the data were processed

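Per the file headers and the study's methods, the authors trimmed paired reads with Trim Galore 0.6.2, aligned them with STAR to GRCm38 (Ensembl 102) with 92 spike-in sequences and H2B-EGFP added, filtered the alignments by rules not given in the sources used here, and counted exons with featureCounts 2.0.1 without strand, splitting pairs between overlapping genes. The deposited values are therefore expected counts, 7.30 to 8.66% of them not whole, and were rounded. SMART-seq v4 libraries carry no molecular identifiers, so intervals cover counting error alone. Symbols were found for 55141 of 55401 identifiers.

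Genes were filtered (filterByExpr, minimum count 10, minimum total 15), TMM scaled and tested with edgeR 4.0.16 (glmQLFit, glmQLFTest, R 4.3.3) on the groups compared, and every adjusted p is a Benjamini-Hochberg value from edgeR unless DESeq2 1.42.0 is named. The SE is the log2 fold change over the root of F. The code was tested on simulated data. No source says that replicates were separate injections, so p-values measure the spread between these libraries. Members and lists were chosen with earlier results of these data known. Named were the targets, the study's genes, the 10 largest changes per direction and up to 3 called members per list and direction, or the 2 highest members of a list without a call. One named gene is not reported here. Alternatives changed the test, scaling, filter, libraries, covariates, rounding and thresholds. The planned comparison of promoter motifs between called and other genes is void, since a promoter was on hand for 68.9% of the genes tested.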

Additional observations from a re-analysis of the deposited data

Results flagged for a closer look

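In 7 of 125 groups of 4 dKD libraries examined, 1 library stood further from the others than Dixon's 95% critical value for the gap over the range, which chance gives in about 1 of 20 groups. dKD replicate 1 had the highest Pla2g7, at 1.83 CPM where the other 3 libraries had 0, the highest Psme1, at 6.64 CPM against 1.65 to 1.89 CPM, and the highest Khdc3, at 17.2 CPM against 6.97 to 8.44 CPM. It also had the lowest Wwtr1, at 94.95 CPM where the others had 119 to 122 CPM. dKD replicate 2 had the highest Mbl2, at 3.12 CPM against 0 to 0.472 CPM, and the lowest Fdft1, at 29.1 CPM against 59.4 to 63 CPM. dKD replicate 3 had the highest Eif2s3y, a Y-linked gene, at 80.8 CPM against 45.8 to 51 CPM. Groups of 3 libraries were not examined.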

How the results depend on the processing

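Scaling moved the balance of calls. In dKD against Klf5 KD, total counts gave 1064 genes higher and spike-in (ERCC) counts 350 lower, and the lower share of the calls went from 50.1% to 31.4% and 37.3%. A mean of at least 50 counts left 438 higher, among fewer genes tested, and unadjusted p gave 1180. Leaving out 1 library gave 506 to 733 lower and 405 to 653 higher, the lowest without Klf5 KD replicate 2. In Nr5a2 KD against control, spike-in counts gave 90 lower and 761 higher, no filter 707 higher, and a term for the mitochondrial share (added once the data had been seen) 373 and 282. Without 1 library these were 184 to 585 lower and 114 to 420 higher, the counts being 206 and 114 when control replicate 1 was left out, 184 and 120 when it was control replicate 2. Genes lower in both came to 67 with spike-in counts, and genes higher in both to 375 with no filter. The interaction had 3 calls with DESeq2 and 15 with no filter, both likewise added. Beyond fewer genes or libraries, the cause was not tested.

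Replicate numbers in the labels did not pair the libraries within either comparison. The deviations of same-numbered libraries correlated at -0.159, 0.0609 and -0.233 for Klf5 KD and dKD and at -0.0303 and 0.0575 for control and Nr5a2 KD. They correlated at 0.182, 0.293 and 0.337 for Nr5a2 KD and dKD, which meet in the interaction, where the replicate block gave 0 calls, and in the values set beside each other for both comparisons. Pairs of unlike number in these groups ran from -0.3225 (Nr5a2 KD replicate 3, dKD replicate 2) to 0.348 (Nr5a2 KD replicate 3, dKD replicate 4). The same-numbered values are thus no sign of pairing by number. With the replicate block, 288 genes were lower and 244 higher, and 189 and 117 were lower and higher in both comparisons, against 367 and 246 without it.

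Of 93 named genes called, none reversed under any alternative run and 36 were called under every one. The call was lost for 50 under the replicate block, 30 with spike-in counts, 14 with total counts and 12 to 34 when 1 library was left out. Without Klf5 KD replicate 1 the log2 fold change was 4.91 for Gm14323, 2.01 for Slc3a2, 3.998 for Obox3 and -0.98 for Tsix, without Klf5 KD replicate 2 it was 3.405 for Krt8, and without Klf5 KD replicate 3 it was 5.51 for Kitl. Among named genes not called, 5 changed sign of their log2 fold change. Aunip was 0.17 with total counts, 0.19 with spike-in counts and -0.17 to 0.094 without 1 library. Mob1b was -0.080 to 0.61 without 1 library. mt-Cytb was -0.0063 with no filter, -0.27 with the mitochondrial covariate and -0.25 to 0.51 without 1 library. mt-Nd1 was -0.042 with that covariate and -0.058 to 0.41 without 1 library. Rplp0 was -0.084 with the replicate block and -0.094 to 0.26 without 1 library.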
